A study of Mus musculus with 6 samples.

Results

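Runx2, Hivep2, Klf7 and Hdac2 were followed across adult-born neurons of the mouse olfactory bulb, in the order of maturation that the study gave them. They were taken by name from the deposited table of unique molecular identifiers (UMIs, each marking 1 captured mRNA molecule), and are 4 of its 18560 genes. The study placed them, among other regulators, in gene networks of developing interneurons. Single-cell libraries (10x Chromium, counting mRNA 3′ ends) came from wild-type C57BL/6NJ mice aged 14 weeks, with 2 libraries in each of 3 conditions: control, naris occluded (1 nostril blocked for 6 weeks, removing odor input to the bulb on that side) and olfactory trained (6 weeks of learning to discriminate odorants). Each library pooled 3 mice, replicate 1 being male and replicate 2 female, so a library is a pool and not an animal. The labels describe the control mice as unmanipulated. The study's text speaks of naive controls and also of the open side of occluded mice as the control, and these libraries are called control here.

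The deposited annotation held 51426 cells, from 6705 to 10570 in a library and from 11841160 to 17065083 UMIs. Of these, 16302 cells fell in 12 clusters of adult-born interneurons. The study ordered these clusters from n04-Immature (3910 cells) into axis A (6426 cells of the granule cell clusters n03, n10, n11, n12 and n14 and the periglomerular clusters n02, n05 and n08) and axis B (5966 cells, from the transitional cluster n06 and the granule cell clusters n07 and n09). The immature label held against its markers: all 8 immature neuron genes, Sox11, Sox4, Stmn1, Stmn2 and Tubb3 among them, were lower on both axes in all 6 libraries, and 6 of 8 mature interneuron genes, such as Gad1, Snap25, Syt1 and Crhr1, were higher on both axes, while Meis2 of that list was lower on both (-0.80 ± 0.05 and -0.46 ± 0.09 as log2 ratios). Gad2 was at 0.22 ± 0.27 on axis A and at -0.74 ± 0.26 on axis B, lower in 6 of 6 libraries. The axis B clusters n06 and n07 were shallow, with a median of 730.0 and 882.0 UMIs against 1291.0 in n09 and 1668.0 in n04. On axis A, n14-GC-7 was also shallow, at 690.0. Barcode sequences occurring in more than 1 library covered 5.75% of the cells.

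Adult-born neurons are made in the subventricular zone throughout life, migrate to the bulb as immature neuroblasts, and there become inhibitory granule or periglomerular cells that either enter the circuit or die. Runx2 is a runt-domain transcription factor best known as the master regulator of bone formation, and binds DNA with the partner Cbfb. Hivep2 (Schnurri-2) is a very large zinc finger protein that binds sites related to those of NF-κB. Klf7 is a Krüppel-like zinc finger factor known for its part in axon outgrowth, also of olfactory neurons. Hdac2 is a class I histone deacetylase which, with Hdac1, forms the catalytic core of the Sin3, NuRD and CoREST repressor complexes.

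All 4 genes are protein coding. On GRCm38.p6, the patch release of the mm10 build named in the submitters' processing notes, RefSeq places Runx2 at chr17:44495987-44814797 on the minus strand, Hivep2 at chr10:13961609-14151378 on the plus strand, Klf7 at chr1:64029448-64122345 on the minus strand and Hdac2 at chr10:36974297-37001889 on the plus strand. The RefSeq promoter window, 250 bases before to 50 after 1 transcription start, was available for all 4. Since one member acts through the RUNX core ACCACA and another belongs to the family that binds GC boxes (GGGCGG), both motifs were searched on both strands. They do not overlap in any member. The GC box occurred in 35.9% of 27025 promoter windows, 1 per gene, and in those of Klf7 (first base at -217 from the start), Hdac2 (-20) and Hivep2 (-123 and -63). No match lay in the Runx2 window. The RUNX core occurred in 16.9% of windows, with 3 matches in Runx2 (-80, 24 and 32) and 1 in Hdac2 (-73). The upstream GC box matches, which Klf7 and Hdac2 share with Hivep2, and the RUNX core upstream of Runx2 itself are printed with the motif in capitals, 5′ to 3′ along the gene's strand. A match describes letters and no binding was measured here.
Klf7, GC box, chr1:64121589-64121618, minus strand: gcgcgcaaaacgGGGCGGagggagggagtt
Hdac2, GC box on the opposite strand, chr10:36974512-36974541, plus strand: ctcgcagccccgCCGCCCggaggcctaccc
Hivep2, GC box on the opposite strand, chr10:13966244-13966273, plus strand: ggatcccccccaCCGCCCgccgcgtcgcgc
Hivep2, second GC box on the opposite strand, chr10:13966304-13966333, plus strand: gggagctgacagCCGCCCgaggggctcgcg
Runx2, RUNX core, chr17:44814690-44814719, minus strand: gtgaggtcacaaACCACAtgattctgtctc

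The members formed 2 pairs along maturation. Runx2 and Hivep2 were higher, and Klf7 and Hdac2 lower, in the neurons of both axes than in n04-Immature, each in 6 of 6 libraries. Levels (CPM) are UMIs of a gene per 1000000 UMIs of the cells summed in a library, and ratios are log2 of (CPM + 1) within a library, given as mean ± SD over 6 libraries. Since clusters were drawn from the same cells and genes, no test was made between them. Of 6946 genes with a mean of at least 20 CPM over n04 and both axes, 38.8% were higher and 25.7% lower on axis A than in n04 in every library, and 39.0% and 34.1% on axis B, so a shared direction by itself is common.

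**Figure D1:**
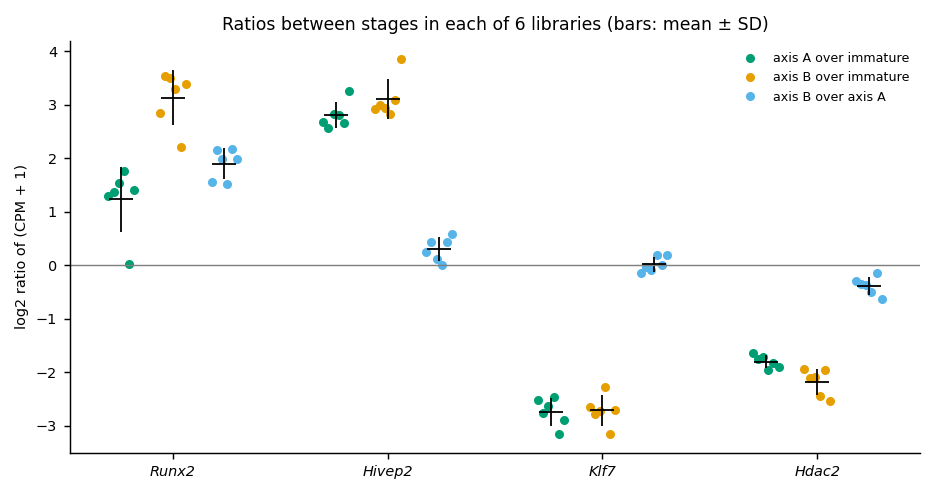
Log2 ratio of (CPM + 1) between axis A and n04-Immature, axis B and n04-Immature, and axis B and axis A for each member, with 1 point per library and bars for mean ± SD (n = 6). Runx2 and Hivep2 lie above 0 and Klf7 and Hdac2 below 0 for both axes over n04, and Runx2 alone is set far apart between the axes, at 1.90 ± 0.29.

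Runx2 marked axis B. Its level in axis B was 47.9 and 55.4 CPM in the control libraries, 39.7 and 44.6 in the occluded and 48.3 and 56.8 in the trained, against 9.32 to 15.7 CPM in axis A and 2.57 to 9.66 CPM in n04. No axis B library overlapped with those of the other stages. The log2 ratio of axis B over axis A was 1.90 ± 0.29, positive in 6 of 6 libraries, as it was for 30.6% of genes. Over n04 the log2 ratio was 3.13 ± 0.52 for axis B and 1.23 ± 0.61 for axis A. The axis A ratio was 0.03 in trained replicate 1, the lowest of the libraries, and rests on few molecules, 33 UMIs in n04 and 148 in axis A over all libraries. With a pseudocount of 10 CPM it became 0.59.

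Among the 18 neuronal clusters the mean of Runx2 was highest in n06-Transition, at 66.8 ± 11.1 CPM (SD, n = 6). This was above the next cluster by mean, n07-GC-2, in every library and by more than either SD. Next by mean came n07-GC-2 (41.6 ± 9.55) and n09-GC-3 (41.2 ± 25.9), which do not differ beyond their spread. In the occluded libraries n09 ranged from 0 to 81.6 CPM and n06 from 57.7 to 87.8, so n06 and n09 overlapped there. Within axis A the mean level varied between granule cell clusters: n10, n11 and n12 held 26.7 ± 20.0, 23.7 ± 7.23 and 22.8 ± 9.31 CPM. The most numerous granule cell cluster of that axis, n03-GC-1, held 4.75 ± 1.18 CPM. Not every n10 library was above n03, since n10 held 0 CPM in a control library. In n14-GC-7 the gene ranged from 0 to 42.4 CPM in the occluded libraries and was at 0 in both trained ones. The periglomerular clusters n02 and n05 were at 2.61 ± 2.34 and 1.99 ± 3.12 CPM, and n08 ranged from 0 to 30.7 CPM in the trained libraries. Nonneuronal cells held 2.05 ± 0.376 CPM, near the level of n02 and n05, while every n03 library and the n04 mean lay above it. The n03 values rest on 14 UMIs over all libraries, from 1 to 4 in a library.

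Counted by cells, 5.23% of n06 and 3.94% of n07 cells had a Runx2 UMI against 0.844% in n04, although n04 cells were sampled more deeply. After thinning every cell to 500 UMIs the shares were 3.35%, 2.12% and 0.285%. A Runx2 UMI was found in 0 of 116 n16-M/TC-2 cells, a mitral and tufted cell cluster, which allows a share of up to 2.59%, and in 0 of 219 red blood cells, which allows up to 1.37%. Summed markers of other cell types were also higher on axis B than on axis A: olfactory ensheathing cell genes ranged from 2029 to 3314 CPM against 1079.6 to 1326, and oligodendrocyte genes from 1922 to 2922 against 951 to 1375. Their part in the Runx2 level was not tested.

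**Figure D2:**
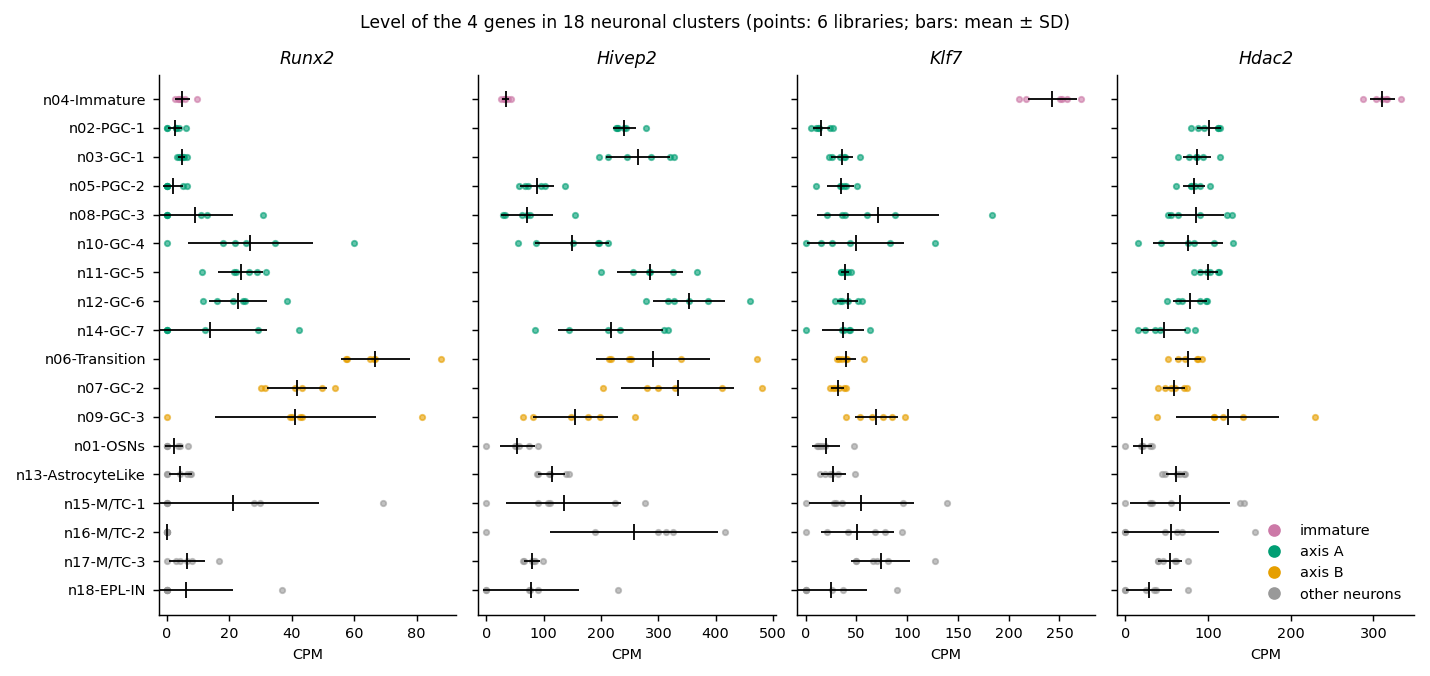
CPM of each member in 18 neuronal clusters, with 1 point per library, a black tick at the mean and a bar of 1 SD (n = 6), coloured by stage. By mean, Runx2 is highest in n06-Transition at 66.8 CPM and Hivep2 is lowest in n04-Immature at 33.9 CPM. Klf7 and Hdac2 stand apart in n04-Immature at 243 and 311 CPM.

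By mean over the 6 libraries, Hivep2 was lowest in the immature neurons. In n04 Hivep2 was 38.1 and 33.3 CPM in the control libraries, 32.5 and 25.5 in the occluded and 43.5 and 30.8 in the trained. Not every library had n04 lowest. In both control libraries n08-PGC-3 lay below n04, at 32.9 CPM or less, on 3 UMIs in each. Olfactory sensory neurons held 0 CPM in occluded replicate 2. The Hivep2 mean in n04, 33.9 ± 6.18 CPM, was the last of 18 neuronal clusters and close to the 28.5 ± 7.61 CPM of nonneuronal cells. The log2 ratio over n04 was 2.80 ± 0.24 on axis A and 3.11 ± 0.37 on axis B. Unlike Runx2, its difference between the axes was small, 0.30 ± 0.22 on the log2 scale, and 0.05 ± 0.42 when only cells with at least 1000 UMIs were kept.

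The highest Hivep2 levels were 354 ± 63.2 CPM in n12-GC-6, 334 ± 98.5 in n07-GC-2, 291 ± 99.9 in n06 and 286 ± 57.3 in n11. None of these neighbours differ beyond their spread. When the control libraries alone were used, or mitochondrial genes were left out of the total, n07 and not n12 ranked first. Among interneurons of axis A it was low in the periglomerular clusters n05-PGC-2 (88.7 ± 29.6) and n08-PGC-3 (71.1 ± 44.8) but not in n02-PGC-1 (241 ± 19.8). After thinning, 16.6% of n12 cells and 1.66% of n04 cells had a Hivep2 UMI, a gap of the same direction as the CPM.

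Klf7 was concentrated in n04-Immature. It reached 217 and 257 CPM in the control libraries, 251 and 209.8 in the occluded and 253 and 271 in the trained. The next neuronal cluster, n17-M/TC-3, held 73.8 ± 28.7 CPM, and n04 stood above it in 6 of 6 libraries by more than either SD. From n17 downward no neighbouring pair of clusters was apart by more than both SDs, down to 15.3 ± 8.35 CPM in n02-PGC-1. The log2 ratio over n04 was -2.73 ± 0.26 on axis A and -2.71 ± 0.28 on axis B, and axis B over axis A was 0.02 ± 0.14, positive in 3 of 6 libraries. Klf7 was not limited to neurons. The whole-bulb annotation gave 188 ± 73.0 CPM in Mural1 cells of the vessel wall, 145 ± 19.4 in OEC2 olfactory ensheathing cells and 134 ± 27.2 in EC1 endothelial cells, and nonneuronal cells together held 94.2 ± 10.5 CPM, above the 35.8 ± 4.23 CPM of axis A.

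Hdac2, like Klf7, was highest in n04-Immature. In n04 it was 303 and 287 CPM in the control libraries, 311 and 315 in the occluded and 317 and 333 in the trained, a mean of 311 ± 15.5 CPM, and the control range lay just below the others. The next cluster was n09-GC-3 at 124 ± 62.0 CPM, followed by n02-PGC-1 at 101 ± 14.7 and n11-GC-5 at 99.9 ± 11.8. The log2 ratio over n04 was -1.80 ± 0.12 on axis A and -2.18 ± 0.25 on axis B. Axis B over axis A was -0.38 ± 0.17, negative in 6 of 6 libraries, as it was for 35.6% of genes, but 0.05 ± 0.29 when the clusters of an axis were given equal weight. In contrast to Klf7, Hdac2 in nonneuronal cells was low, at 49.2 ± 2.42 CPM, and the only nonneuronal cluster among the 6 highest of the whole bulb was OPC, oligodendrocyte precursors, at 110.0 ± 21.9 CPM.

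Over the 12 adult-born clusters Pearson's r of mean log2 (CPM + 1) was 0.78 between Klf7 and Hdac2 and 0.52 between Runx2 and Hivep2, and -0.66 between Hivep2 and Klf7 and -0.59 between Hivep2 and Hdac2. Runx2 had 0.07 with Klf7 and -0.17 with Hdac2. Over all 18 neuronal clusters Hivep2 had 0.03 with Klf7 and 0.36 with Hdac2, so that the negative values held only among adult-born clusters. Clusters share libraries and n04 may weigh heavily in these values, which was not tested, so these are descriptions. Over all 18 neuronal clusters, and among 6956 genes with at least 20 CPM, the genes most like Hdac2 were Cdk4 (0.946), a kinase of the G1 phase of the cell cycle, Sept2 (0.938), Gpbp1 (0.932), Srsf7 (0.930), a splicing factor, and Commd2 (0.930). For Klf7 they were Abracl (0.835), Dbn1 (0.802), the actin-binding drebrin, Alyref (0.800), an mRNA export factor, Midn (0.792) and Sox11 (0.785), a transcription factor of immature neurons. Hivep2 was followed most closely by Mef2c (0.895), a transcription factor of maturing neurons, then Mtfp1 (0.837), Pcbp3 (0.834), Trim9 (0.824) and Mpp2 (0.820). Runx2 was followed by Pitpnm2 (0.885), Rasa2 (0.873), Nhsl2 (0.872), Capn2 (0.872) and Il1rapl1 (0.854). These names depend on the clusters used: with the 12 adult-born clusters alone, 1 of 5 stayed for Runx2, Klf7 and Hdac2 and 0 of 5 for Hivep2.

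Each member was set beside its relatives. Of the KLF family, 4 of 17 genes reached 20 CPM, with 2 higher and 1 lower on axis A, and 2 higher and 2 lower on axis B, in every library. Klf9, a factor known to limit growth of maturing neurons, had a log2 ratio of 2.88 ± 0.42 on axis A, opposite to Klf7, and Klf16 one of 1.72 ± 0.43, while Klf13 was at -0.15 ± 0.14 on axis A and, with the direction of Klf7, at -0.55 ± 0.12 on axis B, lower in 6 of 6 libraries. Klf11, at 3.72 CPM over the 12 clusters and so under the minimum, was lower on both axes (-1.32 ± 0.99 and -2.00 ± 0.65). All 3 HIVEP genes were higher on axis A in 6 of 6 libraries, at 0.75 ± 0.34 for Hivep1 and 0.73 ± 0.30 for Hivep3 beside 2.80 for Hivep2. On axis B Hivep3 was again higher in 6 of 6 libraries (0.63 ± 0.38), and Hivep1 was at -0.00 ± 0.68. The RUNX partner Cbfb was lower on axis A (-0.83 ± 0.26) and axis B (-0.91 ± 0.40), and Runx1t1, a corepressor named for its fusion with Runx1, was lower on both as well (-1.53 ± 0.23 and -1.47 ± 0.18). The related corepressors were at -0.24 ± 0.35 on axis A for Cbfa2t2 and, at 7.80 CPM, 0.82 ± 0.67 for Cbfa2t3, higher there in 6 of 6 libraries. The other runt-domain genes were near absent, Runx1 at 1.24 and Runx3 at 0.0191 CPM over the 12 clusters. Among 8 RUNX2 targets of bone, none reached 20 CPM over the 3 stages. Sp7, the osteoblast factor osterix, was the most abundant of them at 26.8 CPM as the mean over 12 clusters, with 27.9 CPM on axis A and 5.88 in n04, whereas Spp1 was at 10.5, Alpl at 0.647, Ibsp at 0.189 and the collagenase Mmp13 at 0.

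Of the 11 histone deacetylases, 9 reached 20 CPM, and 5 were higher and 2 lower on each axis in every library. Hdac2 and the class IIa gene Hdac7 (-1.02 ± 0.27 on axis A and -0.80 ± 0.63 on axis B) were lower, while Hdac11 (2.39 ± 0.32), Hdac9 (1.72 ± 0.37) and Hdac5 (0.85 ± 0.19) were higher. Hdac1, the partner of Hdac2, had a log2 ratio of 0.10 ± 0.37 on axis A and 0.28 ± 0.51 on axis B. The other subunits of the Sin3, NuRD and CoREST complexes mostly had the direction of Hdac2: of 21 at 20 CPM or more, 12 were lower and 4 higher on axis A (median log2 ratio -0.47, against 0.12 over all genes), and 11 lower and 2 higher on axis B (median -0.57, against 0.08). Sap30 of the Sin3 complex was at -1.96 ± 0.21 on axis A and -3.25 ± 0.48 on axis B, and Rcor2 of the CoREST complex, under the minimum at 6.84 CPM over the 12 clusters, at -2.72 ± 0.53 on axis A. The NuRD remodelers Chd3 and Chd4 were at -0.05 ± 0.17 and -0.51 ± 0.12 on axis A. The neuronal remodeler Chd5 (1.44 ± 0.25) and Ing2 (1.25 ± 0.35) were higher on axis A. The MEF2 genes Mef2a, Mef2c and Mef2d, known targets of class IIa deacetylases, were higher on both axes in 6 of 6 libraries (0.97 ± 0.25, 1.87 ± 0.15 and 1.35 ± 0.28 on axis A).

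**Figure D3:**
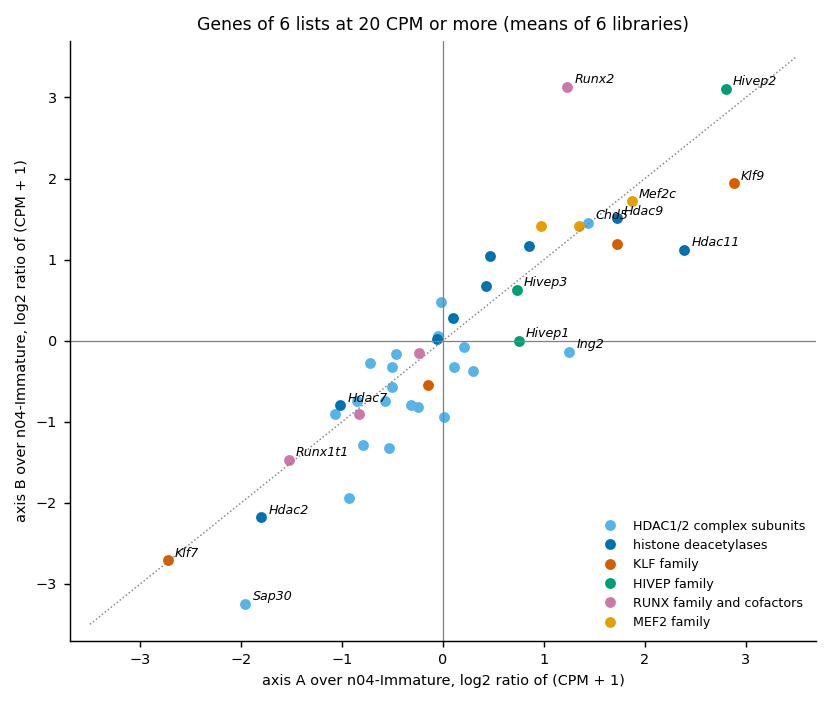
Mean log2 ratio of (CPM + 1) over n04-Immature on axis A (horizontal) and axis B (vertical) for genes of 6 lists with at least 20 CPM, 1 point per gene (mean of 6 libraries), with the dotted line marking equal ratios. Runx2 lies far above the line at 1.23 and 3.13, and Klf7 and Hdac2 lie at the lower left beside Sap30, while most deacetylases lie above 0 on both axes.

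The study also drew the regulators Dlx1, Dlx2, Tcf4, Sox11, Sp3, Fosl2 and Mef2d beside these 4. Of these 7, 5 were lower on axis A in every library, from -4.97 ± 0.35 for Sox11 to -0.31 ± 0.16 for Sp3, with Dlx2 at -1.59 ± 0.20, Dlx1 at -1.03 ± 0.16 and Tcf4 at -0.95 ± 0.08. Fosl2, an AP-1 factor, and Mef2d were higher, at 2.94 ± 0.76 and 1.35 ± 0.28. As the study named this list and the 4 members from these libraries, their directions are not independent evidence. The study placed regulators by the activity of inferred target genes and not by their own mRNA, the measure used here. By that activity it placed Klf7 in the immature state, Hdac2 on axis A, Hivep2 on axis B and Runx2 in almost all adult-born neurons.

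The conditions asked whether odor deprivation or training changed these genes within a stage. Hivep2 was the only member called, and only between trained and occluded bulbs. On axis B Hivep2 was 297 and 273 CPM in control, 255 and 187 in occluded and 380.0 and 457 in trained libraries. Hivep2 lay above both controls in both trained libraries and below them in both occluded libraries, an order that was not counted over all genes. It was higher in trained than occluded libraries by 0.92 (log2, SE 0.19, adjusted p = 0.00809, edgeR's quasi-likelihood test across all genes, n = 2 per condition), a 1.89-fold difference. Of 9635 genes tested there, 0.384% were called, and of the 4 members tested 1 was.

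On axis A Hivep2 was 250.4 and 202 CPM in control, 236 and 186 in occluded and 281 and 303 in trained libraries. The trained libraries were again the highest, but the control and occluded ranges overlapped. The difference between trained and occluded libraries was 0.50 (log2, SE 0.12, adjusted p = 0.0180), 1.41-fold, with 1.53% of 11180 genes called and 1 of 4 members. Against control, training gave log2 differences of 0.35 on axis A (unadjusted p = 0.00546, adjusted p = 0.357, edgeR) and 0.50 on axis B (0.00922 and 0.613), and occlusion -0.15 and -0.42 (adjusted p = 0.896 and 0.999). None of these passed the threshold, and the call is between the manipulated groups alone.

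Both Hivep2 calls rested on 2 libraries a condition, and some leave-one-out fits did not pass the threshold. Such a fit leaves a condition with 1 pool of 1 sex, which is assumed to vary like the others, so only log2 differences are given for it. Why some did not pass was not tested. On axis A the log2 difference was 0.66 without occluded replicate 1 and 0.35 without occluded replicate 2. It was 0.53 without trained replicate 1 and 0.48 without trained replicate 2. With all libraries DESeq2 gave an adjusted p of 0.0988 on axis A. On axis B the log2 difference was 1.21 without occluded replicate 1 and 0.72 without occluded replicate 2. It was 1.05 without trained replicate 1 and 0.81 without trained replicate 2. Among axis B cells with at least 1000 UMIs it was 0.80, with an adjusted p of 0.870 by edgeR. The direction held in all of these, with log2 differences from 0.35 to 0.66 on axis A and from 0.72 to 1.21 on axis B over 16 alternatives each.

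**Figure D4:**
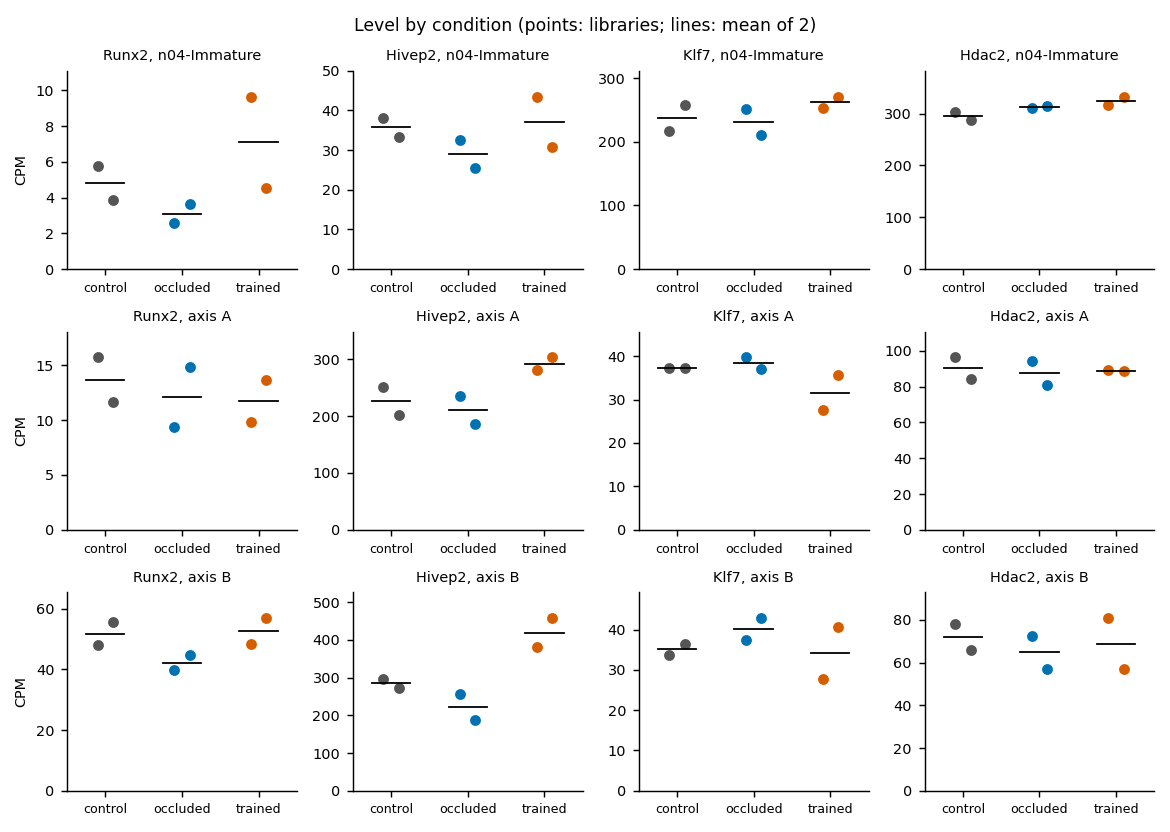
CPM of each member in n04-Immature, axis A and axis B by condition, with 1 point per library and a line at the mean of 2. Hivep2 in trained libraries lies at 281 and 303 CPM on axis A and at 380.0 and 457 CPM on axis B, above the control and occluded libraries, while the libraries of the other members overlap or lie close together.

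By cluster, Hivep2 in both trained libraries exceeded both controls in 8 of 12 adult-born clusters and was below both in 0, a count reached by 0.460% of 6950 genes. Both occluded libraries were below both controls in 6 clusters, a count reached by 1.38% of genes, and above in 1, n08-PGC-3. In n06-Transition the trained libraries ranged from 339 to 473 CPM, the controls from 249.7 to 253 and the occluded from 214 to 218. In n11-GC-5 these ranges were 325 to 367, 284 to 286 and 199.7 to 256, and in n03-GC-1 they were 321 to 328, 213 to 288 and 196 to 245. When each axis was rebuilt from its clusters at fixed weights, trained libraries remained the highest, at 282 and 301 CPM on axis A against 186 to 251 in the other libraries, and at 379 and 459 on axis B against 197 to 294. Outside the adult-born lineage, where it was not tested, the order varied. Nonneuronal cells held 31.3 and 24.5 CPM of Hivep2 in control, 23.1 and 19.8 in occluded and 40.7 and 31.9 in trained libraries, the same order. Olfactory sensory neurons had that order too, with 52.0 and 56.7 in control, 49.7 and 0 in occluded and 90.7 and 74.4 in trained libraries. These values rest on few molecules, 14 and 12 UMIs in control, 12 and 0 in occluded and 22 and 11 in trained libraries. In mitral and tufted cells it was 99.8 and 101 in control, 123 and 118 in occluded and 136 and 96.5 in trained libraries, with occluded above control and trained on both sides. In n13-AstrocyteLike trained libraries were highest (139 and 144), and control (112 and 90.3) and occluded (89.2 and 110.2) overlapped.

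**Figure D5:**
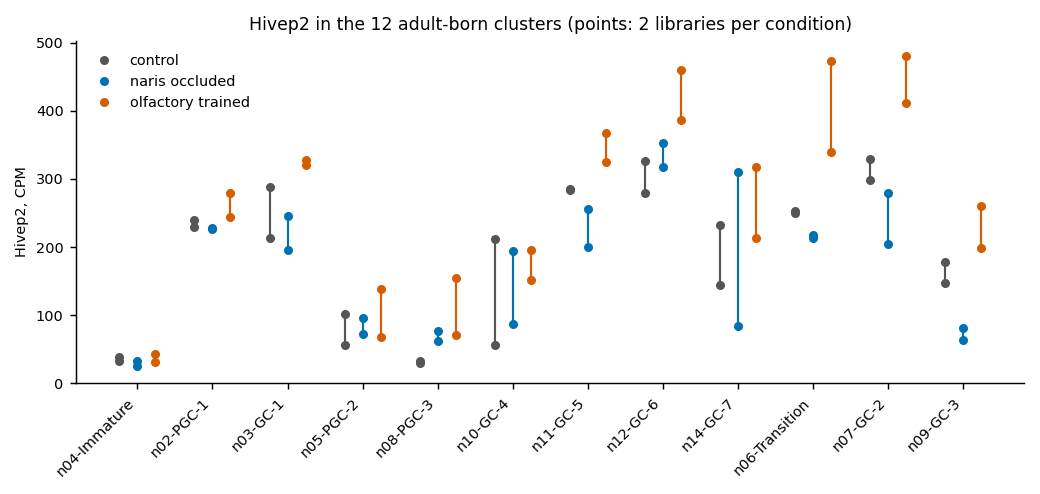
Hivep2 CPM in the 12 adult-born clusters by condition, with 1 point per library joined by a line within a condition. Both trained libraries lie above both controls in 8 clusters, among them n06-Transition (339 to 473 against 249.7 to 253 CPM), and in n04-Immature no library exceeds 43.5 CPM.

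Other genes moved with this difference. In trained against occluded libraries on axis A, the same edgeR test called 2 of 8 immature markers, both lower. They were Tubb3 (-0.62, adjusted p = 0.00376) and Igfbpl1 (-0.70, adjusted p = 0.00363). Of 8 mature interneuron genes it called 1, the synaptic gene Syt1, which was higher (0.46, adjusted p = 0.0317). The 8 immature markers summed to 1715 to 2207 CPM in trained, 2042 to 2067 in control and 2464 to 2519 in occluded libraries there. On axis B they summed to 1105 to 1129, 1054 to 1121 and 1194 to 1414, though 0 of 8 were called between trained and occluded libraries. On both axes the occluded libraries lay above the others, and trained and control overlapped. Red blood cell genes stood apart in occluded libraries on axis A, with 4 of 5 (Hba-a1, Hba-a2, Hbb-bs and Hbb-bt) lower in trained. Their sum there was 830.3 to 1030.0 CPM in occluded against 74.7 to 183 in control and 58.1 to 62.0 in trained libraries. On axis B occluded libraries, at 264 to 303 CPM, overlapped with control at 158 to 275 and lay above trained at 83.1 to 108. The summed ensheathing cell genes lay lower in trained libraries than in occluded ones, at 1087 to 1154 against 1308 to 1326 CPM on axis A and 2029 to 2032 against 2279 to 3314 on axis B, though 0 of 5 of them were called on either axis. The 8 mature interneuron genes summed on axis A to 5677 to 5854 CPM in trained, 5457 to 5589 in control and 4749 to 5280.3 in occluded libraries, the order of Hivep2, whereas trained and occluded overlapped on axis B. Sums of mesenchymal and of endothelial or mural genes also lay lower in trained than occluded libraries on axis A, where 0 of 3 endothelial or mural genes tested were called and the mesenchymal genes were too low to be tested (6.90 to 8.32 against 12.1 to 13.2 and 67.5 to 75.6 against 82.4 to 109 CPM), and the other lists overlapped there. Cell quality also separated these libraries. In adult-born neurons the median mitochondrial share was 13.4 and 10.7% in trained, at most 12.2% in control and 9.36 and 8.14% in occluded libraries. Median UMIs per adult-born cell were 1018.0 and 1117.5 in trained, 1240.0 and 1100.0 in control and 1519.0 and 1289.5 in occluded libraries. Trained and occluded libraries overlapped in neither measure. With mitochondrial genes left out of the counts, the Hivep2 difference was 0.50 on axis A (adjusted p = 0.0153, edgeR) and 0.92 on axis B (adjusted p = 0.00760, edgeR). Among cells with at least 1000 UMIs it was 0.50 on axis A (adjusted p = 0.0375, edgeR) and 0.80 on axis B, where the call was lost (adjusted p = 0.870, edgeR). Leaving out mitochondrial genes changes the totals and not the cells, so it does not test cell quality. The part of cell quality and of the markers in the Hivep2 difference was not tested.

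Runx2, Klf7 and Hdac2 did not pass the threshold in any comparison. In occlusion against control, edgeR called 0 of 3 members tested in n04 (0.107% of all genes), 0 of 4 on axis A (0.250%) and 0 of 4 on axis B (0.0208%), and DESeq2 called 0 in each. At an unadjusted p under 0.05 there was 1 member, Hivep2 on axis B. In training against control both tools called 0 members in n04 (0%), axis A (0.188%) and axis B (0.104%), with Hivep2 under 0.05 unadjusted on each axis. In trained against occluded n04 cells edgeR and DESeq2 called 0 of 3 (0.0107%), none under 0.05 unadjusted. Runx2, with 33 UMIs, was too low to be tested in n04.

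Between conditions the fitted differences of these 3 genes ran from -0.36 to 0.34 on the log2 scale, both for Runx2 on axis B. That gene was at 48.3 and 56.8 CPM in trained against 39.7 and 44.6 in occluded libraries, log2 difference 0.34 (SE 0.25, adjusted p = 0.779, edgeR). Klf7 in n04 differed by 0.21 between trained and occluded (SE 0.13) and Hdac2 by 0.07 (SE 0.12). On axis A Klf7 was at 27.6 and 35.6 CPM in trained against 37.1 to 39.7 CPM in the other libraries, with log2 differences of -0.28 from either group (SE 0.20, adjusted p = 0.809 against control). In simulated tables of training against control, 200 genes were changed by 1 on the log2 scale. The test recovered 46.5%, 63.5% and 52.5% of them in n04, axis A and axis B. Genes of the lowest counts were not among those changed, and all genes were given a common spread. The share is therefore not that of these 3 genes.

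Whether a condition differed from control by another amount on each axis was tested by the interaction of axis and condition. The contrast of trained against occluded libraries, where Hivep2 was called, was not tested for a difference between the axes. None of 4 members was called for occlusion (0.0362% of 11054 genes) or training (0%) by edgeR, DESeq2 called none either, and none had an unadjusted p under 0.05. For Hivep2 the effect on axis B minus that on axis A was -0.28 (SE 0.18, adjusted p = 0.999, edgeR) for occlusion and 0.15 (SE 0.16, adjusted p = 1.00) for training.

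Relatives and companions of the members were called in the same comparisons. Over all genes, the share called was 1.53% on axis A and 0.384% on axis B between trained and occluded libraries, and 0.188% and 0.104% between trained and control. Fosl2 rose with training on both axes, by 1.01 (SE 0.16, adjusted p = 0.00165) on axis A and 1.85 (SE 0.31, adjusted p = 8.50e-04) on axis B against control, and by 1.53 and 2.98 against occlusion. It was the only one of the 7 companion regulators called. Between trained and control libraries edgeR called 21 genes on axis A and 10 on axis B, and DESeq2 called 11 and 1. Fosl2 itself was not followed through the alternatives. Hdac5, a deacetylase that leaves the nucleus on neuronal activity, rose by 0.70 in trained against occluded axis A (SE 0.14, adjusted p = 0.00715), the only 1 of 11 deacetylases called there, and Klf10, a TGF-β inducible early response factor, rose by 1.46 on axis B (SE 0.28, adjusted p = 0.00223), the only 1 of 7 KLF genes tested there. Of 27 and 24 complex subunits tested on axis A and axis B, 0 were called between trained and occluded libraries, with median log2 differences of 0.08 and 0.12 beside 0.00 and -0.01 over all genes.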

How the data were processed

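Single-cell RNA-seq was measured in 6 libraries. Per the labels and the paper's methods, the authors processed reads with Cell Ranger 2.0.0 (mm10), clustered cells with Seurat 2.2.1 and removed doublets from their data set. Whether the deposited count table still holds doublets was not tested. They deposited raw UMI counts (52549 barcodes) and cell annotations, in which the authors also gave a mitochondrial fraction per cell. Only the counts were used for levels, and mitochondrial shares were recomputed from them. The 1123 barcodes without annotation were left out. Library identity was taken from the annotation: the starts of cell names of the trained libraries are crossed there, and Xist and Ddx3y counts followed the annotation. The labels name pools of animals and no separate experiments. The 2 pools of a condition differ in sex, and the main fit held no term for it. The p-values therefore measure a spread between pools that includes the difference between male and female mice.

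Counts were summed per library and stage and tested in R 4.3.3 with edgeR 4.0.16 (quasi-likelihood test, TMM, low counts filtered by filterByExpr, Benjamini-Hochberg adjustment over all genes with a threshold of 0.05, all 6 libraries in the fit). DESeq2 1.42.0, only the libraries compared, a replicate block, deeper cells, single clusters, another pseudocount and each library left out were alternatives. The test was checked on simulated data. Levels between clusters were described without a test. The members and gene lists were chosen with earlier results of these data known. Genes named were the members, the 5 genes most like each, and from each list the 3 with the highest CPM, the 2 highest and 2 lowest ratios of axis A over n04, and every gene called. Hdac1, Runx1, Runx3, Mmp13, Sp3 and Gad2 were named beside these after their values were seen. Fixed cluster weights and the counts by cluster over all genes were added after seeing the data. Limits for shares of 0 (3 counts) cover counting error only.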

Additional observations from a re-analysis of the deposited data

How the results depend on the processing

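Each condition had 2 libraries, and Runx2 rests on few UMIs. Between trained and occluded libraries 1 member (Hivep2) was called on each axis. On axis A the count fell to 0 with DESeq2, with only the 4 libraries compared and with n03-GC-1 alone, and ranged from 0 to 1 when a library was left out. On axis B it was 0 among cells with at least 1000 UMIs and from 0 to 1 when a library was left out. Fewer libraries or cells entered some of these, and for DESeq2 the cause was not tested. Hivep2 in occluded against control axis A, -0.15, ranged from -0.32 to 0.01 when a library was left out, with 0.01 without control replicate 1. No member was called in the other comparisons under any alternative run. DESeq2 gave no adjusted p for Runx2 in either axis A comparison with trained libraries, nor for Klf7 between trained and occluded axis A.

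With a pseudocount of 10 CPM, which shrinks ratios by construction, the log2 ratio of axis A over n04 was 0.59 for Runx2, 2.52 for Hivep2 and -2.47 for Klf7, that of axis B over n04 was 1.98 for Runx2 and that of axis B over axis A was 1.39. With clusters weighted equally, Hdac2 was at -1.92 on axis A and -1.87 on axis B over n04, Klf7 at -2.36 on axis B, and axis B over axis A was 0.24 for Klf7 and 0.05 for Hdac2, the latter a reversal. Among cells with at least 1000 UMIs axis B over axis A was 1.55 for Runx2, 0.05 for Hivep2 and 0.29 for Klf7. Runx2 in n06 was 79.3 CPM with mitochondrial genes left out and 52.7 among the deeper cells, and Hdac2 in n04 was 341 and, in the controls alone, 295. The cause was not tested.

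Counts over all genes moved more: 171 between trained and occluded axis A became 45 with DESeq2, 267 with the replicate block and from 13 upward elsewhere, and 37 on axis B became 5 with DESeq2 and ranged from 2 to 75. Deviations of same-numbered libraries correlated at 0.205 to 0.455, with 2 libraries a condition. The number follows the sex of the pool, and whether it also marks a shared batch is not given in the labels. With the replicate block Hivep2 between trained and occluded libraries was at 0.50 on axis A (adjusted p = 0.00455, edgeR) and 0.93 on axis B (adjusted p = 0.00496, edgeR), and the block changed no call of a member.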

Other observations

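The 1123 barcodes without annotation, which had a median of 2327.0 UMIs against 1354.0 in annotated cells, also held the members. Hivep2 there was at 127 CPM in control, 84.2 in occluded and 154 in trained libraries, each summed over the condition and without a test. Klf7 was at 87.6, 114 and 98.6 CPM and Hdac2 at 91.6, 63.7 and 83.6 CPM in the same order. Runx2 was at 14.5, 11.3 and 11.2 CPM.

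The skeletal gene Bglap2, which encodes an osteocalcin, was at 13.7 CPM on axis A against 1.26 in n04 and 2.38 on axis B, a log2 ratio of 2.84 ± 0.91 on axis A that was positive in 6 of 6 libraries. Sp7 was higher on both axes, at 2.13 ± 0.58 and 2.03 ± 0.66, whereas Runx2 was mostly on axis B. No test was made between clusters.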
